A study of Mus musculus with 6 samples.

Results

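The Schlafen family comprised 7 genes of the deposited count table, Slfn1, Slfn2, Slfn3, Slfn4, Slfn5, Slfn8 and Slfn9, matched by symbol among 50686 genes. Their RNA was measured by bulk sequencing of splenic natural killer (NK) cells, lymphocytes of the innate immune system that kill tumour cells and infected cells. The WT group (3 libraries) came from healthy C57BL/6J mice labelled wild type. The Eumyc group (3 libraries) came from C57BL/6J mice given Eumyc lymphoma, a B cell tumour driven by the Myc oncogene, by the intravenous route, with spleens taken on day 14 after inoculation, and its labels give no genotype. In both groups B cells were depleted with the 1D3 antibody, CD49b beads were used, and NK1.1+ TCRb- cells were sorted. Eumyc cells were sorted from the CD49b bead fraction and from what the beads left behind, so the sort and the lymphoma cannot be told apart in any difference below. The labels name no individual animals, so the p-values measure spread between samples that may be technical alone.

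Schlafen proteins share an N-terminal core that binds RNA and, in several members, cleaves transfer RNA (tRNA). The long members also carry a helicase-like part at the C terminus. The family has expanded into a gene cluster in the mouse, many members are induced by type I interferon, and Slfn2 is best known for keeping lymphocytes quiescent and viable.

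On the GRCm38 build, the 7 members lay side by side on chromosome 11 between 82951349 and 83215154, a stretch of 263806 bases, and all were annotated as protein-coding. In the order of the deposited coordinates, Slfn5 (ENSMUSG00000054404) spanned 82951349 to 82964840, Slfn9 (ENSMUSG00000069793) 82978390 to 82991830 and Slfn8 (ENSMUSG00000035208) 83002158 to 83020810. Slfn2 (ENSMUSG00000072620) spanned 83065112 to 83070678, Slfn1 (ENSMUSG00000078763) 83116849 to 83122670, Slfn4 (ENSMUSG00000000204) 83175186 to 83190216 and Slfn3 (ENSMUSG00000018986) 83191330 to 83215154. Slfn8 and Slfn9 lie on the minus strand and the other 5 on the plus strand in the GENCODE M21 annotation. Their longest coding lengths fell into 3 classes. Slfn1 and Slfn2 were short, at 1011 and 1134 bases. Slfn3 and Slfn4 were intermediate, at 1920 and 1806 bases. Slfn5, Slfn8 and Slfn9 were long, at 2652, 2730 and 2730 bases.

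RefSeq promoter windows (GRCm38.p6, 250 bases before to 50 after a transcript start) were found for 7 of 7 members. Their letters divided the 7 members along these classes. The core of the interferon-stimulated response element, written GAAA, 2 bases of any kind, GAAA and searched on both strands (TTTC, 2 bases, TTTC on the other), was present in the windows of the 3 long members and in none of the 4 short or intermediate members, while 3.44% of 32851 windows held it. The stretches around it are shown because these members differed in the sign of their fold change below, with the match in capitals and each written 5′ to 3′ on the strand of its gene.
Slfn5 (chr11:82951922-82951981, plus strand, match from position -155): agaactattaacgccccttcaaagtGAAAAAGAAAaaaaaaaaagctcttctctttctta
Slfn8 (chr11:83020824-83020883, minus strand, match from position -48): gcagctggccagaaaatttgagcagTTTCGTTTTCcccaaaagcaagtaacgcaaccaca
Slfn9 (chr11:82991841-82991900, minus strand, match from position -45): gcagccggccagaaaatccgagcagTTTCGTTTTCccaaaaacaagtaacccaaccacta
Positions count back from -1 at the base before the RefSeq start. Slfn8 had a second RefSeq start, from which the same match began at position -136. The gamma-activated site TTCNNNGAA, which reads the same on both strands, was found in none of the members' windows and in 8.30% of all windows. The 4 short and intermediate members instead shared the run ACTTCCTGG (reverse complement CCAGGAAGT), chosen after the windows had been read. It occurred in all 4 of these windows, in none of the long members' windows and in 0.843% of all windows. The split did not extend to Slfn14, a long Schlafen gene outside the set (longest coding length 2697 bases). Its window held neither the interferon-stimulated response element, nor the gamma-activated site, nor this run.
Slfn1 (chr11:83116721-83116779, plus strand, match from position -74): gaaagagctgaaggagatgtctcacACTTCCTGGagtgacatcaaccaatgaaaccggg
Slfn2 (chr11:83065032-83065090, plus strand, match from position -55): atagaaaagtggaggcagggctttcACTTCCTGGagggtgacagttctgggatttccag
Slfn3 (chr11:83191263-83191321, plus strand, match from position -42): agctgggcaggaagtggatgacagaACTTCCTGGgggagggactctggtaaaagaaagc
Slfn4 (chr11:83175088-83175146, plus strand, match from position -73): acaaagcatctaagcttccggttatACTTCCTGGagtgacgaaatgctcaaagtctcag
None of these stretches overlapped an annotated GENCODE exon, although that of Slfn5 lay within the deposited span of the gene. A match describes the letters in the window only.

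The 6 libraries held 16407611 to 66615602 gene counts, the 3 Eumyc libraries being the deepest. Summed over 10 NK cell marker genes, which include Ncr1, Klrb1c and Eomes, levels ranged over 11972 to 12452 CPM (counts scaled to library size) in the WT libraries and over 10331 to 11625 CPM in the Eumyc libraries. Of these 10 genes 6 fell in Eumyc and 0 rose, with a median log2 fold change of -0.34. Markers of other cells were higher in Eumyc for 9 of 16 tested monocyte and macrophage genes (1 lower), 9 of 9 neutrophil, 5 of 8 dendritic cell, 6 of 7 B cell, 3 of 10 T cell (1 lower) and 7 of 8 erythroid genes, and for 1 of 3 megakaryocyte and platelet genes (2 lower). Of all tested genes 25.7% were higher and 23.1% lower. No gene of these lists was at 0 in all libraries. The summed monocyte and macrophage level was 1404 to 1458 CPM in WT and 1880 to 2663 CPM in Eumyc, highest in Eumyc 1. The neutrophil sum was 3.25 to 5.75 CPM in WT and 59.8 to 88.3 CPM in Eumyc. The B cell sum was 15.7 to 19.5 and 49.4 to 56.5 CPM, the T cell sum 144 to 150 and 201 to 240 CPM, and the erythroid sum 14.1 to 32.9 and 61.1 to 71.7 CPM. The most abundant member of each list in Eumyc was Gzma for NK cells, Ccr2 for monocytes, S100a9 for neutrophils, Itgax for dendritic cells, Cd22 for B cells, Cd3g for T cells, Hbb-bs for erythroid cells and Gp1bb for platelets. NK cells themselves also express several of these genes, Itgax and Ccr2 among them. In these sorted populations fewer cells of a type and less RNA per cell cannot be told apart.

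The comparison of Eumyc with WT asked how Schlafen transcripts differed between NK cells of lymphoma-bearing and healthy mice. The family did not move as a block. Slfn3 and Slfn4 rose in Eumyc, Slfn8 fell, and Slfn1, Slfn2, Slfn5 and Slfn9 did not pass the test, which was edgeR's quasi-likelihood test with Benjamini-Hochberg adjustment over all 15458 tested genes and a threshold of 0.05. All 7 members passed the filter on low counts. Of all tested genes 48.8% passed in either direction, 25.7% higher and 23.1% lower, so 3 of 7 members, 2 higher and 1 lower, is a share near the background. The members' median log2 fold change was 0.71, beside -0.005 over all tested genes. Groups were free of overlap in CPM for the same 3 members, 2 higher and 1 lower, beside 31.3% of tested genes higher and 28.9% lower without overlap. The plot of CPM by library shows the 3 patterns side by side.

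**Figure D1:**
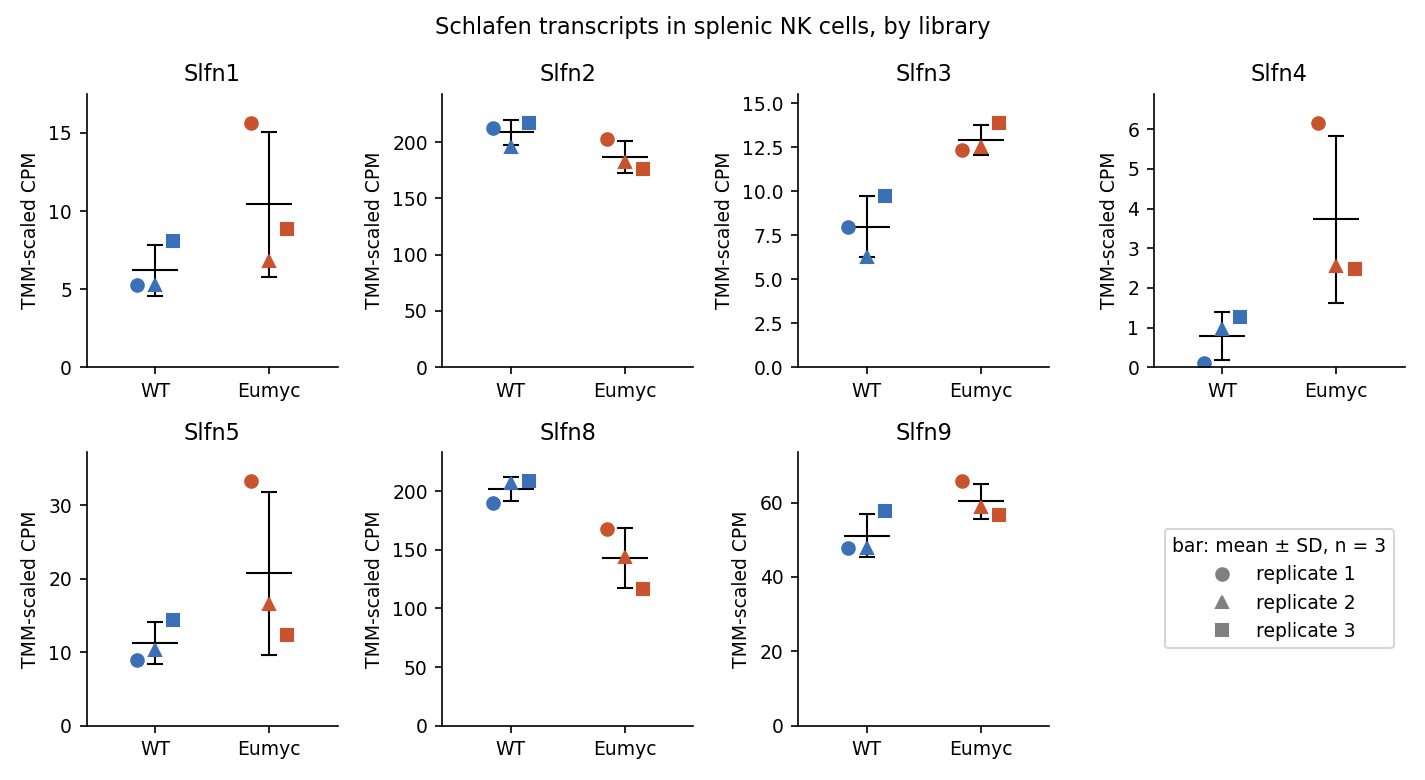
TMM-scaled CPM of the 7 Schlafen members (vertical axis of each panel, starting at 0) in 3 WT and 3 Eumyc libraries. Each point is a library, its shape gives the replicate number, and bars are the mean ± SD (n = 3). Slfn3, Slfn4 and Slfn8 have no overlap between groups, and Eumyc replicate 1 is the highest Eumyc library for every member other than Slfn3.

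Both short members are expressed, at very different levels. Slfn2, whose loss in mice leaves T cells unable to stay quiescent, had WT levels of 213, 195 and 217 CPM and Eumyc levels of 203, 182 and 176 CPM. The groups overlapped, since Eumyc 1 lay above WT 2. Means were 209 ± 11.5 CPM in WT and 187 ± 14.0 CPM in Eumyc (SD, n = 3 each), with a log2 fold change of -0.16 ± 0.07 (SE) and an edgeR adjusted p of 0.0966. The deposited table also lists an antisense gene, RP23-392I13.15, that spans part of Slfn2 and had a log2 fold change of -0.92 ± 0.18 (edgeR adjusted p = 0.00398). It shares 0 exon bases with Slfn2 in GENCODE M21.

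Slfn1, a growth inhibitor when overexpressed in thymocytes, was at 5.27, 5.25 and 8.09 CPM in WT and 15.6, 6.79 and 8.85 CPM in Eumyc. Eumyc 1 was the highest library, and Eumyc 2 lay below WT 3, so the groups overlapped. The log2 fold change was 0.76 ± 0.32 (SE) with an edgeR adjusted p of 0.0760. Its value was 0.37 without Eumyc 1 (adjusted p = 0.248), and it passed without Eumyc 2 (1.01, adjusted p = 0.0239) and without WT 3 (0.99, adjusted p = 0.0398).

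The intermediate pair rose. Slfn3, which has been studied in T cells and in gut epithelial differentiation, stood at 7.97, 6.25 and 9.70 CPM in WT and 12.3, 12.5 and 13.9 CPM in Eumyc. Every Eumyc library lay above every WT library, and the 3 Eumyc libraries were close together. Slfn3 rose from 7.98 ± 1.73 to 12.9 ± 0.843 CPM (SD, n = 3 each), by 0.71 ± 0.16 (SE) on the log2 scale or 1.63-fold (edgeR adjusted p = 0.00794), and it passed in 14 of 14 alternative fits.

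Slfn4, a member known from monocytes, macrophages and other myeloid cells, was the least abundant. It had 3, 36 and 21 counts in the WT libraries and 267, 165 and 165 counts in the Eumyc libraries, or 0.108, 0.974 and 1.26 CPM and 6.16, 2.55 and 2.48 CPM. All Eumyc libraries lay above all WT libraries, and Eumyc 1 stood apart from Eumyc 2 and 3. Slfn4 rose by 2.30 ± 0.65 (SE) on the log2 scale, or 4.92-fold, with an edgeR adjusted p of 0.0184. Without Eumyc 1 the log2 fold change was 1.75 and the edgeR adjusted p was 0.0550, so the call was lost. It was barely kept without WT 2 (2.63, edgeR adjusted p = 0.0490). Without WT 1 the log2 fold change was 1.77 (edgeR adjusted p = 0.0324). In the monocyte and macrophage list, 14 of 16 genes exceeded in Eumyc 1 their mean over Eumyc 2 and 3, with a median log2 difference of 0.60, where that of Slfn4 was 1.28. In WT 3 Slfn4 exceeded its mean log2 level over WT 1 and 2 by 1.71. That difference rests largely on WT 1, with 3 counts, since WT 3 (1.26 CPM) lay nearer to WT 2 (0.974 CPM). Of these 16 genes 4 were higher in WT 3, with a median of -0.30. In the neutrophil list 6 of 9 genes were higher in WT 3 (median 1.27) and 8 of 9 in Eumyc 1 (median 0.41). Eumyc 1 and WT 3 were set apart here after the values had been seen. Fcgr4, a receptor gene of nonclassical monocytes that was picked for display after its value had been seen, rose by 6.26 ± 0.46 (SE) on the log2 scale (edgeR adjusted p = 0.000121). This was the largest rise among the 16 genes, of which 9 rose and 1 fell, with a median log2 fold change of 0.58. The part of monocytes, macrophages and neutrophils in the Slfn4 result was not tested.

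The 3 long members differed in sign, and of them only Slfn8 passed the test. Their windows held a match to the core of the interferon-stimulated response element. The short members, without this match, also differed in sign (0.76 for Slfn1 and -0.16 for Slfn2), and neither passed. Slfn5, an interferon-inducible nuclear member, was at 8.98, 10.3 and 14.4 CPM in WT and 33.2, 16.6 and 12.3 CPM in Eumyc. Eumyc 3 lay below WT 3, and Eumyc 1 was the highest library. The log2 fold change was 0.89 ± 0.35 (SE) with an edgeR adjusted p of 0.0646. It was 0.39 without Eumyc 1 (adjusted p = 0.190), and the gene passed without Eumyc 3 (1.17, adjusted p = 0.0204) and without WT 3 (adjusted p = 0.0454). An annotated antisense gene, Slfn5os, overlaps 482 bases of its exons but had 0 counts in every library.

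Slfn8, a long member studied in T cells, stood at 190, 207 and 208 CPM in WT and 168, 144 and 116 CPM in Eumyc. Every Eumyc library lay below every WT library. Slfn8 fell from 202 ± 10.1 to 143 ± 25.6 CPM (SD, n = 3 each), a log2 fold change of -0.50 ± 0.12 (SE) and an edgeR adjusted p of 0.00880, and it passed in 14 of 14 alternative fits. Its value without Eumyc 3 was -0.37, the smallest of these.

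Slfn9, the neighbour of Slfn8 with a coding length equal to it, was at 47.8, 47.8 and 57.8 CPM in WT and 65.7, 58.8 and 56.6 CPM in Eumyc. Only Eumyc 3 lay below the highest WT library. The log2 fold change was 0.24 ± 0.10 (SE) with an edgeR adjusted p of 0.0639, and the gene passed without WT 3 (0.34, adjusted p = 0.00952). The ratio of Slfn8 to Slfn9 counts, which needs no scaling between libraries, was 3.97, 4.33 and 3.61 in WT and 2.55, 2.44 and 2.06 in Eumyc. The ratio was lower in all 3 Eumyc libraries than in any WT library, with means of 3.97 ± 0.359 and 2.35 ± 0.260 (SD, n = 3 each). The ratio of Slfn8 to Slfn2 was also lower in all 3, at 0.893, 1.06 and 0.960 in WT and 0.827, 0.788 and 0.663 in Eumyc. Both ratios had p = 0.1 in a two-sided exact permutation test of their log2 values, the smallest p that 3 against 3 allows, and p = 0.1 when adjusted over the 2 ratios, which were chosen after the values had been seen.

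The pseudogene Slfn10-ps, which lies between Slfn8 and Slfn2 from 83028130 to 83040042 and was no member of the set, also fell. It stood at 57.0, 58.3 and 43.6 CPM in WT and 32.3, 40.9 and 34.2 CPM in Eumyc, without overlap, and fell by 0.57 (SE 0.13) on the log2 scale (edgeR adjusted p = 0.00752). Slfn14, a ribosome-associated nuclease needed in platelets and red cells, was near 0.4 to 0.5 CPM in both groups, with means of 0.410 ± 0.0815 and 0.498 ± 0.117 CPM (SD, n = 3 each, edgeR adjusted p = 0.610). Slfnl1 on chromosome 4 had at most 5 counts in a library and was not tested.

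**Figure D2:**
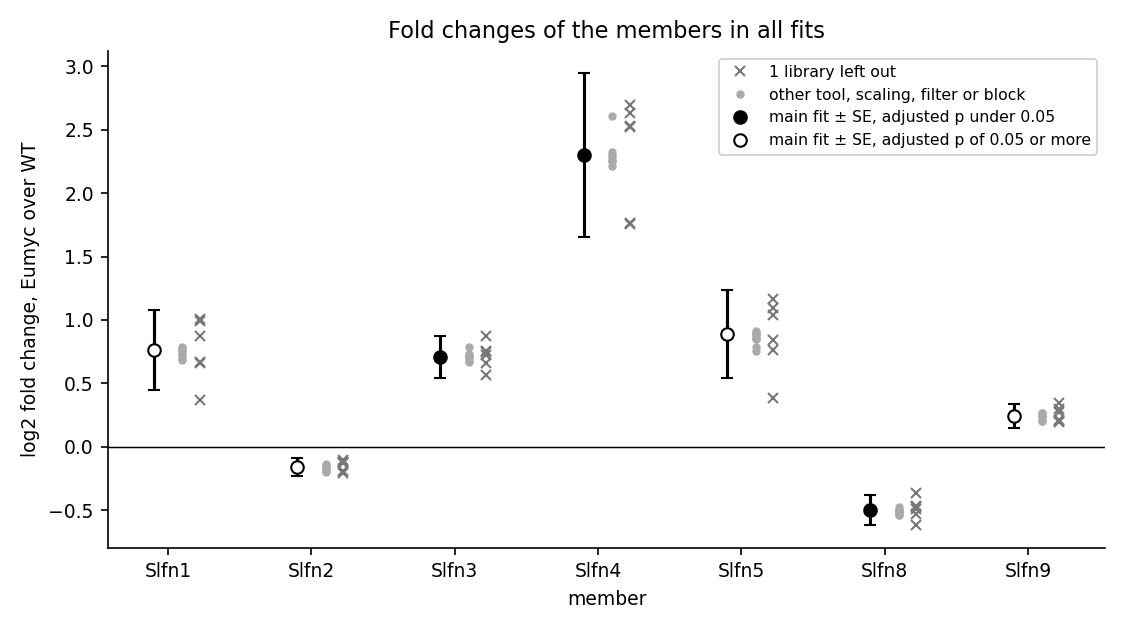
Log2 fold change of each member, Eumyc over WT (vertical axis). Circles are the edgeR estimate ± SE, filled where the adjusted p was under 0.05, dots are 8 fits with another tool, scaling, filter or a replicate block, and crosses are 6 fits that each leave out 1 library. No member changes sign, and the crosses of Slfn1, Slfn4 and Slfn5 spread most (Slfn4 has 7 dots, since 1 filter removes it).

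Near-identical members can share reads. Among all 50-base stretches of their GENCODE M21 transcripts, 14.6% of those of Slfn8 and 11.9% of those of Slfn9 also occurred in another gene, most often in Slfn10-ps. The share was 15.99% for Slfn3, 11.3% for Slfn4, 11.1% for Slfn5, 4.27% for Slfn2 and 0.606% for Slfn1. At 100 bases these shares fell to 3.38% for Slfn8, 3.71% for Slfn9, 2.92% for Slfn3, 6.40% for Slfn5 (most often shared with Slfn5os) and 0.271% for Slfn4. Those of Slfn3 at this length occurred in genes such as Gm11427. With read length and the handling of multiply mapped reads not given in the sources used here, the split of counts between Slfn8, Slfn9 and Slfn10-ps, and between Slfn3 and Slfn4, is uncertain to that extent, as are the counts of Slfn3 and Slfn5 relative to genes outside the family.

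Per kilobase of exon, the levels of the members differed by orders of magnitude. In WT the mean level per length was 125 CPM per kb for Slfn2, 49.3 for Slfn8, 8.57 for Slfn9, 3.33 for Slfn1, 2.34 for Slfn3, 1.78 for Slfn5 and 0.197 for Slfn4. Slfn1 and Slfn3, and Slfn3 and Slfn5, overlapped between WT libraries, and the other neighbours in this order did not. The same order held in Eumyc, at 112, 34.9, 10.1, 5.60, 3.78, 3.27 and 0.942 CPM per kb. There the ranges of Slfn1 (3.64 to 8.40), Slfn3 (3.61 to 4.07) and Slfn5 (1.95 to 5.25) overlapped one another.

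**Figure D3:**
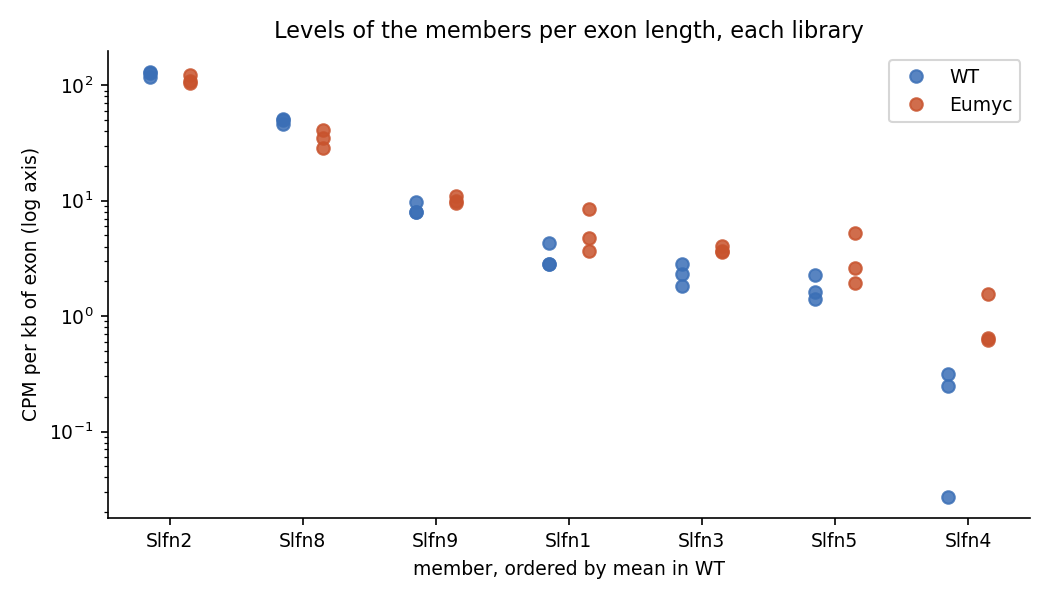
Level of each member in CPM per kilobase of exon (log axis), with 1 point per library, WT in blue and Eumyc in orange. Slfn2 and Slfn8 lead in every library, Slfn4 is lowest, and Slfn1, Slfn3 and Slfn5 lie close together.

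The summed level of the family was 473, 473 and 517 CPM in WT and 504, 423 and 386 CPM in Eumyc, so the groups overlapped, while the shares of several members did not. Slfn2 and Slfn8 together made up 85.2%, 85.1% and 82.4% of the members' counts in WT and 73.6%, 77.0% and 75.6% in Eumyc. Slfn8 alone went from 40.2%, 43.7% and 40.3% to 33.3%, 34.0% and 30.1%, and Slfn9 from 10.1%, 10.1% and 11.2% to 13.1%, 13.9% and 14.7%, in each case without overlap. The share of Slfn2 overlapped, at 41.3% to 45.0% in WT and 40.3% to 45.5% in Eumyc. The exact Clopper-Pearson 95% interval, which covers counting error only, was 39.3% to 41.0% for Slfn8 in WT 1 and 29.6% to 30.7% in Eumyc 3.

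**Figure D4:**
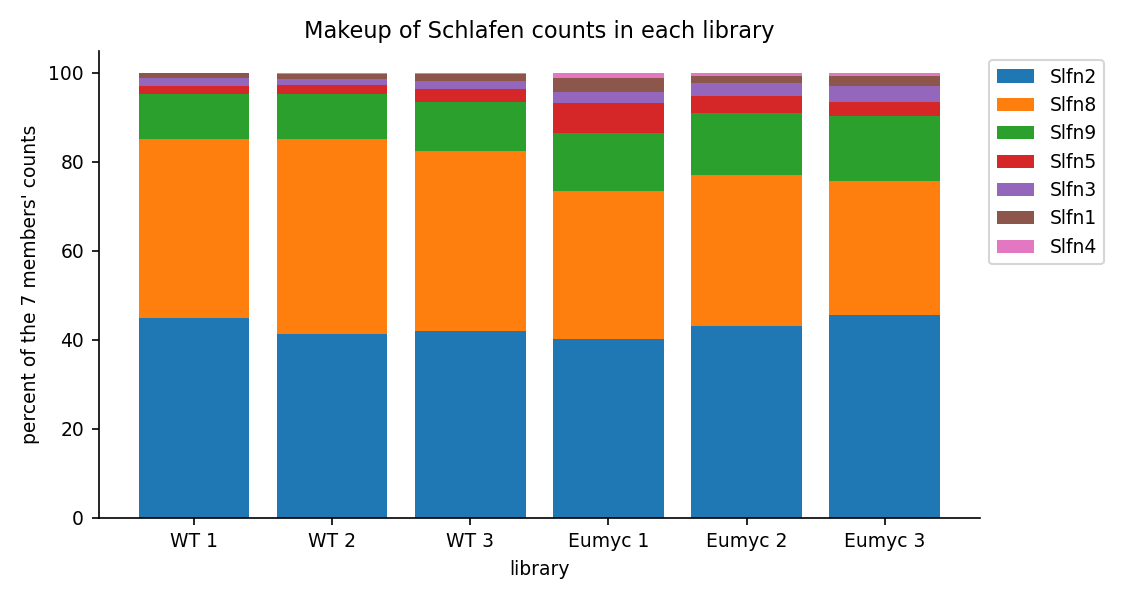
Percent of the summed counts of the 7 members (vertical axis, from 0) that each member holds in each of the 6 libraries. Slfn8 takes 40.2% to 43.7% in WT and 30.1% to 34.0% in Eumyc, while Slfn9 takes 10.1% to 11.2% in WT and 13.1% to 14.7% in Eumyc.

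Libraries of 1 group differed in the members in the same sense as in type I interferon response genes. WT 3 and Eumyc 1 were picked for this after the values had been seen, and genes of a library are not independent replicates. In WT 3 all 7 members exceeded their mean over WT 1 and 2, with a median log2 difference of 0.46, and in Eumyc 1 6 of 7 exceeded their mean over Eumyc 2 and 3, with a median of 0.37. Of all tested genes 50.3% did so in WT 3 and 49.3% in Eumyc 1. In the interferon list these counts were 35 of 36 (median 0.59) and 36 of 36 (median 0.61). In Eumyc 1 the monocyte and macrophage list shared this sense, with 14 of 16 genes higher (median 0.60). In WT 3 it did not, with 4 of 16 higher (median -0.30). The neutrophil list shared it in both, with 6 of 9 genes higher in WT 3 (median 1.27) and 8 of 9 in Eumyc 1 (0.41). Its sum in WT was at most 5.75 CPM. The dendritic cell list had 6 of 8 (0.56) and 6 of 8 (0.18). The B cell list had 5 of 7 (0.08) and 6 of 7 (0.19), and the T cell list 6 of 10 (0.13) and 3 of 10 (-0.17). The NK cell, erythroid and platelet lists had negative medians in WT 3 (-0.04, -0.73 and -0.53). Among the members, Slfn4, Slfn5 and Slfn1 had the largest differences, at 1.71, 0.58 and 0.62 in WT 3 and 1.28, 1.22 and 1.01 in Eumyc 1. That of Slfn4 in WT 3 rests largely on WT 1, which held 3 counts of it. Slfn3 was the member that was not higher in Eumyc 1, at -0.10, and Slfn2, Slfn8 and Slfn9 differed by 0.37 or less in both cases. WT 3 also stood apart in 20 proliferation genes, all of them higher there than in WT 1 and 2, by a median of 1.46, and all 20 rose in Eumyc. Its part in the members' values was not tested.

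**Figure D5:**
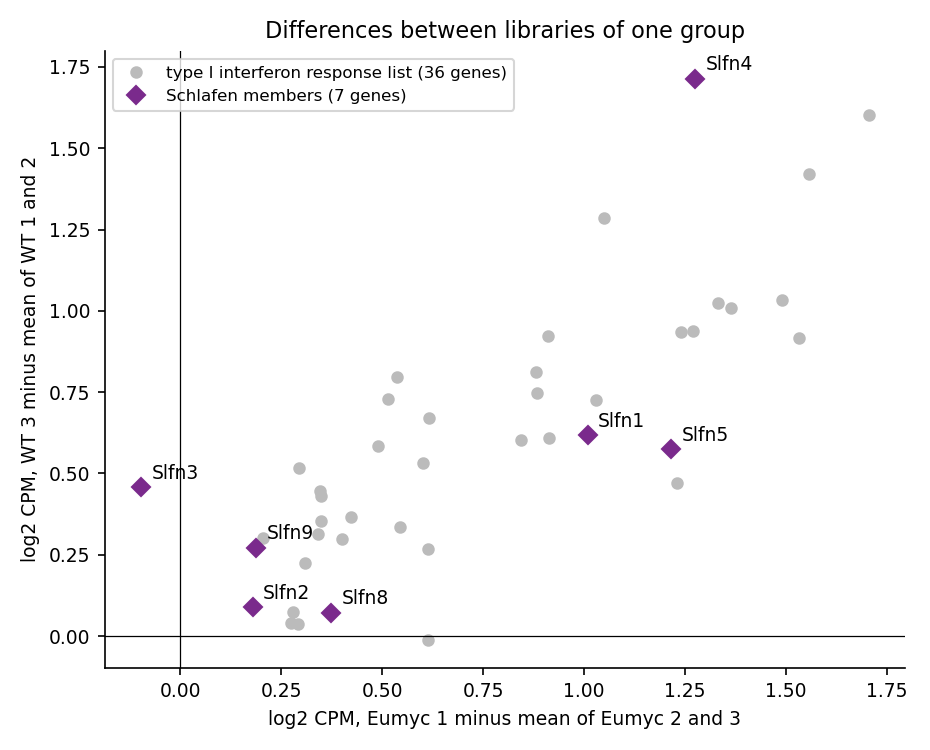
Difference in log2 CPM of Eumyc 1 from the mean of Eumyc 2 and 3 (horizontal axis) against that of WT 3 from the mean of WT 1 and 2 (vertical axis), for the 7 members (diamonds) and 36 type I interferon response genes (grey). Slfn1, Slfn4 and Slfn5 lie high on both axes, Slfn2, Slfn8 and Slfn9 lie near the origin, and Slfn3 is the member left of 0 on the horizontal axis. The height of Slfn4 rests largely on WT 1, which held 3 counts of it. WT 3 and Eumyc 1 were picked after the values had been seen.

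Of the 36 type I interferon response genes 21 rose in Eumyc, 0 fell and 15 did not pass, where 25.7% of all tested genes rose and 23.1% fell. The median log2 fold change of the list was 0.60, beside -0.005 over all tested genes. Ifi27l2a rose by 2.33 ± 0.45 (SE) on the log2 scale and the ubiquitin-like modifier gene Isg15 by 1.54 ± 0.31. Oasl2 rose by 1.54 ± 0.47, although its groups overlapped, and its adjusted p was 0.0592 without Eumyc 1, 0.0958 without WT 1, 0.103 without WT 2 and 0.0769 with limma-voom. Leaving out WT 1 or WT 2 left 7 genes that rose, and leaving out Eumyc 1 left 11. Among the genes of interferon receptors and signalling 3 of 15 were higher and 4 lower, near the shares over all tested genes, with a median of 0.007. Those that rose included Usp18, by 0.80 ± 0.29 (it is in both lists and its groups overlapped), and the receptor chain gene Ifngr2, by 3.78 ± 0.43. In the Eumyc libraries Ifngr2 stood at 15.6, 6.65 and 7.63 CPM, highest in Eumyc 1, as was the summed monocyte and macrophage level. The part of those cells in the Ifngr2 value was not tested. The kinase gene Tyk2 fell by 0.47 (SE 0.07), and the other 3 that fell were Jak1, Ifnar1 and Ifngr1, the last 3 and Ifngr2 being named after their values were seen. The 3 higher calls became 1 without WT 1, without WT 2 or without Eumyc 1, and Usp18 passed in 5 of 14 alternative fits.

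Genes of lymphocyte quiescence, the state in which Slfn2 acts, fell in 11 of 16 cases and rose in 2, with a median of -0.52. Of all tested genes 23.1% fell and 25.7% rose. The antiproliferative gene Tob1 fell from 54.7 ± 8.80 to 19.9 ± 2.70 CPM (SD, n = 3 each), by 1.46 (SE 0.14) on the log2 scale, and Foxo4 fell by 0.96 (SE 0.12). Klf4 rose by 3.53 ± 0.40 and the other gene that rose, Ndfip1, named after its value was seen, by 0.27 ± 0.06. In the Eumyc libraries Klf4 stood at 54.1, 18.9 and 25.4 CPM, highest in Eumyc 1, as was the summed monocyte and macrophage level. The part of those cells in the Klf4 value was not tested. Beside these genes Slfn2, at -0.16, did not pass the test. A further list held genes that cut, splice, repair or modify tRNA, or that inhibit its cleavage. Among its 11 tested genes 4 rose and 0 fell, with a median of 0.12, beside the same shares over all tested genes. The tRNA methyltransferase gene Nsun2 rose by 0.48 ± 0.08, the splicing endonuclease gene Tsen54 by 0.42 ± 0.08 and Rnh1, which encodes the inhibitor of angiogenin and related ribonucleases, by 0.41 ± 0.06. The fourth was Rtcb, the tRNA ligase gene (0.29 ± 0.07, named after its value was seen). Ang, the gene of angiogenin, did not pass the filter on low counts, with mean levels of 0.0361 CPM (WT) and 0.103 CPM (Eumyc).

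Genes next to the cluster did not share a direction. Of 27 tested genes within 500 kb, 8 rose and 5 fell, with a median of -0.10, which is near the shares over all genes. On the side of Slfn5 the nearest tested gene was Nle1, 42938 bases away, with a log2 fold change of 0.15 ± 0.17. On the side of Slfn3 it was the noncoding transcript AI662270, 8422 bases away, which rose by 0.66 ± 0.10 (edgeR adjusted p = 0.000935), close in size to the 0.71 of Slfn3.

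The genes most like each member over the 6 libraries were found by the root-mean-square difference of log2 CPM, centred on each gene's mean, among 9003 genes averaging 10 CPM or more. These are descriptions of 6 libraries. For Slfn5 the closest were the interferon-induced genes Usp18 (difference 0.107) and Mx1 (0.138). Usp18 stood at 10.1, 12.3 and 17.0 CPM in WT and 32.9, 19.8 and 15.4 CPM in Eumyc, the same ranking of libraries as Slfn5. The 2 genes closest to Slfn1 included Ifit1bl1 (0.189). Slfn3 was closest to Mfsd10 (0.0401) and Pkig (0.0423), and Slfn2 to Sertad1 (0.0316) and Rab3d (0.0348). Slfn8 was closest to Kif3c (0.0746) and Tmem63b (0.0760), and Slfn9 to Ms4a6b (0.0364) and Tnip1 (0.0414). Slfn4 had no close match, with Tnfaip2 at 0.759 and Dna2 at 0.794. Within the family the closest pairs were Slfn2 with Slfn9 (0.213), Slfn2 with Slfn8 (0.215) and Slfn1 with Slfn5 (0.255), while Slfn8 and Slfn4 were farthest apart (1.81).

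The authors' deposited table of their own comparison lists 10292 genes and 6 of the 7 members. Among these members 5 have an adjusted p under 0.05 in the authors' deposited table, as do 6165 of its 10288 genes with an adjusted p, with log2 fold changes of 0.66 for Slfn3, 0.73 for Slfn5, 0.63 for Slfn1, 0.23 for Slfn9 and -0.50 for Slfn8, and Slfn2 is at -0.16 with an adjusted p of 0.0540. In the authors' deposited table Slfn9 has an adjusted p of 0.0493, Slfn1 of 0.0391 and Slfn5 of 0.0158, where edgeR gave 0.0639, 0.0760 and 0.0646 for the same genes. The signs of all 6 were the same in both.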

How the data were processed

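The authors deposited whole-number counts per Ensembl gene for 6 libraries of sorted splenic NK cells, and a table of their own comparison with a mean normalized signal, log2 fold changes, a test score and p-values per gene. DESeq2 1.10.1, HTSeq 0.6.1 and STAR 2.5.2 are the tools, and GRCm38 and mm10 the builds, named per the submitters' processing notes. Annotation release, strand setting and read filters were not given in the sources used here. The test on counts was that of edgeR 4.0.16, run in R 4.3.3 (filterByExpr at a minimum count of 10, TMM scaling, quasi-likelihood fit with the group alone, two-sided), with Benjamini-Hochberg adjustment over 15458 genes. CPM are TMM-scaled, log2 CPM used a prior count of 2, and SE came from the F statistic. Exon lengths and transcripts came from GENCODE M21 (GRCm38) and promoter windows from RefSeq. Alternatives were DESeq2 1.42.0, limma 3.58.1 voom, other scalings and filters, leave-one-out fits and a replicate block. The scripts were tested on simulated data.

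The family, gene lists and tests were chosen with earlier results of these data known, and the members, themselves listed with those results known, were matched by symbol, with no measured value in the rule. Named genes were all members, other Slfn symbols, up to 3 called genes with the largest log2 fold change per pathway list at 10 CPM or more, the nearest tested neighbours, the 2 genes most like each member, and the most abundant marker of each cell type list in Eumyc. Some genes that this rule names are not reported here. All libraries differed by more than sampling noise (lowest chi-square per degree of freedom 8.46). Figures were drawn with matplotlib 3.10.9.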

Additional observations from a re-analysis of the deposited data

How the results depend on the processing

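In all 14 alternatives no member changed sign, and Slfn3 and Slfn8 passed in every one (log2 fold changes 0.56 to 0.87 and -0.62 to -0.37). The members called higher, 2 in the edgeR fit, were 4 with DESeq2, 5 with no filter, 1 of 6 tested with a filter of 3 CPM in 3 libraries, and 1 to 5 with a library left out. Of all genes, 3973 of 15458 were called higher in the edgeR fit, 4054 of 15458 with DESeq2, 4276 of 25212 with no filter, 3277 of 11077 with the 3 CPM filter and 4284 of 16147 without WT 3. Those called lower, 1 in the edgeR fit, were 2 with total counts or upper quartile scaling and 1 to 2 with a library left out, while of 15458 genes 3576 were called lower in the edgeR fit, 3957 with total counts and 4002 with upper quartile scaling. Calls were gained by Slfn1 with DESeq2 (0.76) and no filter (0.79), by Slfn9 with DESeq2 (0.25), limma-voom (0.26) and no filter (0.27), by Slfn5 with no filter (0.91), and by Slfn2 with total counts (-0.19) and upper quartile scaling (-0.20). With a library left out the log2 fold changes ran from 0.37 to 1.01 for Slfn1, -0.20 to -0.11 for Slfn2, 1.75 to 2.70 for Slfn4, 0.39 to 1.17 for Slfn5 and 0.19 to 0.34 for Slfn9. The 3 CPM filter removed Slfn4, so it has no value there. With a library left out, interferon response genes called higher were 7 to 28 of 36 and interferon signalling genes 1 to 4 of 15. The counts of quiescence genes called lower, tRNA genes called higher and all genes called stayed within 1.5 times. Where not a matter of fewer libraries or genes, the cause was not tested. Slfn4 rests on few counts in WT, 3 to 36 per library.

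The labels give both groups replicate numbers 1 to 3 without saying that they pair samples. Deviations from the group means of same-numbered libraries correlated across genes, which are not independent replicates, at 0.040, 0.099 and 0.126, and each library correlated best with its own number. With a replicate block the log2 fold changes were 0.72 for Slfn3, 2.21 for Slfn4 and -0.51 for Slfn8, and no member's call changed.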
